A study of Mus musculus with 14 samples.

Results

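Kap, the kidney androgen regulated protein gene, had the highest mean level of the 21878 genes read in kidney RNA of 14 male mice. It is 1 gene of those 21878, found as the row that bears this symbol in every mouse. The gene was chosen by its measured level and by its differences between the groups, so its values are given here as a description, without a test. Kap encodes a small secreted protein made by proximal tubule cells, the cells that reclaim most of the filtered load. In the male mouse kidney its messenger RNA is abundant and depends on androgen, and it has long served as a marker of androgen action in this tissue. The proximal tubule runs from the early segments S1 and S2, rich in glucose and phosphate transporters, to the straight segment S3, where many sex-dependent genes are used.

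The mice were C57BL/6J males in 4 groups, namely 3 WT control, 3 Cfb-/- control, 4 WT diabetic, and 4 Cfb-/- diabetic mice. Cfb-/- mice lack complement factor B, a protease of the alternative complement pathway, in the whole body. They were 8 weeks old at the start. Diabetic mice ate HFD with 60% of calories from fat for 4 weeks and then received STZ, a toxin of the insulin-producing β cells, at 60 mg/kg on 5 days, and kidneys were taken 21 weeks after STZ. Control mice ate chow with 10% of calories from fat and received the citrate buffer without STZ. The sample labels give a time of 34 weeks without naming its starting point, repeat the diabetic treatment for the control mice, and call the deletion a knockdown, so the groups were read from the sample titles. Because HFD and STZ were given together, their parts cannot be told apart. The labels name the tissue only as kidney, without the region. Such RNA mixes many cell types, and in bulk samples fewer cells of a type and less RNA per cell cannot be told apart.

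Kap lies on the minus strand of chromosome 6, and GENCODE M21 places it at chr6:133849851-133853762 of GRCm38, with 4 exons in each of 2 transcripts. The longer transcript, Kap-201, has 707 exonic bases and encodes 121 residues, and the shorter one, Kap-202, has 464 exonic bases and encodes 104 residues. The nearest genes with a row in the files were Etv6, a transcription factor gene 182 kb away with a mean of 8.39 FPKM, and Gm5885, 317 kb away on the other side and listed at 0 in all 14 mice. FPKM, the unit of all levels here, is the number of fragments scaled to transcript length and to the mapped fragments of the library, so levels can be compared between genes.

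The letters around the start of the gene are shown because androgen acts on its target genes through DNA elements. They come from the RefSeq promoter table of GRCm38.p6, which places the start at base 133853667, whereas GENCODE starts the longer transcript 95 bases further upstream. The first stretch below lies upstream of both starts, at chr6:133853763-133853917. The second one, at chr6:133853681-133853710, holds the letters of a TATA box, an element that positions RNA polymerase II, in capitals. Both are on the minus strand, 5′ to 3′.
upstream stretch: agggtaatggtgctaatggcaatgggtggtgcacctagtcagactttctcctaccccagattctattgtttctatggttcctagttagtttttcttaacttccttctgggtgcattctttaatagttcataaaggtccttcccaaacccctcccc
TATA stretch: gagtacaggatgTATAAAagcccaggagga

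The window of 300 bases, 250 before the RefSeq start and 50 after it, was searched on both strands for 4 motifs. TATAAA was found at position -31 from the RefSeq start, and 13.6% of 32851 RefSeq promoters hold it. TGTTCT, the half-site of the androgen response element, was not in this window, nor was a pair of half-sites, AGAACA and then TGTTCT with 3 bases between. They were present in 19.0% and 0.00913% of all promoters. CCAAT, held by 37.4%, was not found either. Of 16 genes listed here as induced by androgen in kidney, 12 had a promoter in the table, and 2 of these 12 held the half-site and 3 the TATA box. These counts describe letters in a short window and not binding of any factor.

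The libraries were checked before Kap was compared. Cfb, the deleted gene, was at 106 ± 38.2 FPKM (SD, n = 3) in WT control and 72.5 ± 11.2 (n = 4) in WT diabetic mice, against 2.16 ± 0.0913 (n = 3) and 1.34 ± 0.144 (n = 4) in the Cfb-/- groups. The 4 Y-linked genes looked up were read at 1.25 FPKM or more in every mouse, but their sum was 14.1 FPKM in WT control mouse 2, the mouse with the highest Kap, and 24.4 to 32.0 FPKM in the other 13 mice. The number of reads per mouse is not given, and relative depth, estimated from the steps between low values, ranged from 0.831 to 1. Pearson's r between mice of a group was 0.981 to 0.990, and no pair of mice had identical values. In the 14 mice the summed FPKM ranged from 330246 to 488196, and the highest sum belonged to WT control mouse 2. WT control mouse 3 stood apart in another way, with several S3 genes far below the other WT control mice, among them Cyp7b1, a steroid hydroxylase, at 2.41 FPKM and Serpina1f, a serpin, at 0.77 FPKM. Many of the calls and Kap values that moved without 1 of these mice are given both ways.

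Kap was lower in diabetic than in control mice of both genotypes, and no diabetic mouse reached the lowest control mouse. In WT control mice Kap was at 41536, 67836, and 43498 FPKM, and in WT diabetic mice at 9698, 9732, 16015, and 12640 FPKM. The means were 50956 ± 14651 (SD, n = 3) and 12021 ± 2998 (n = 4), so that the control mean was 4.24 times the diabetic mean. On the log2(FPKM + 0.1) scale the difference was -2.08 with an SE of 0.33. The high value of WT control mouse 2 accounted for much of the spread among WT control mice. Without that mouse the WT control mean was 42517 FPKM, 3.54 times the diabetic mean, and the log2 difference was -1.85. Without WT control mouse 3 it was -2.17. In that mouse Kap itself, at 43498 FPKM, was the median of its group.

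In Cfb-/- control mice Kap was at 39707, 43757, and 43149 FPKM, and in Cfb-/- diabetic mice at 6671, 11341, 12118, and 10349 FPKM. The means were 42204 ± 2184 (n = 3) and 10120 ± 2410 (n = 4), a ratio of 4.17, and the log2 difference was -2.10 with an SE of 0.33. Cfb-/- diabetic mouse 1 had the lowest Kap of all 14 mice. Cfb-/- control mice were the most uniform group, with an SD of 5.18% of the mean, whereas the SD was 28.8% in WT control, 24.9% in WT diabetic, and 23.8% in Cfb-/- diabetic mice.

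**Figure D1:**
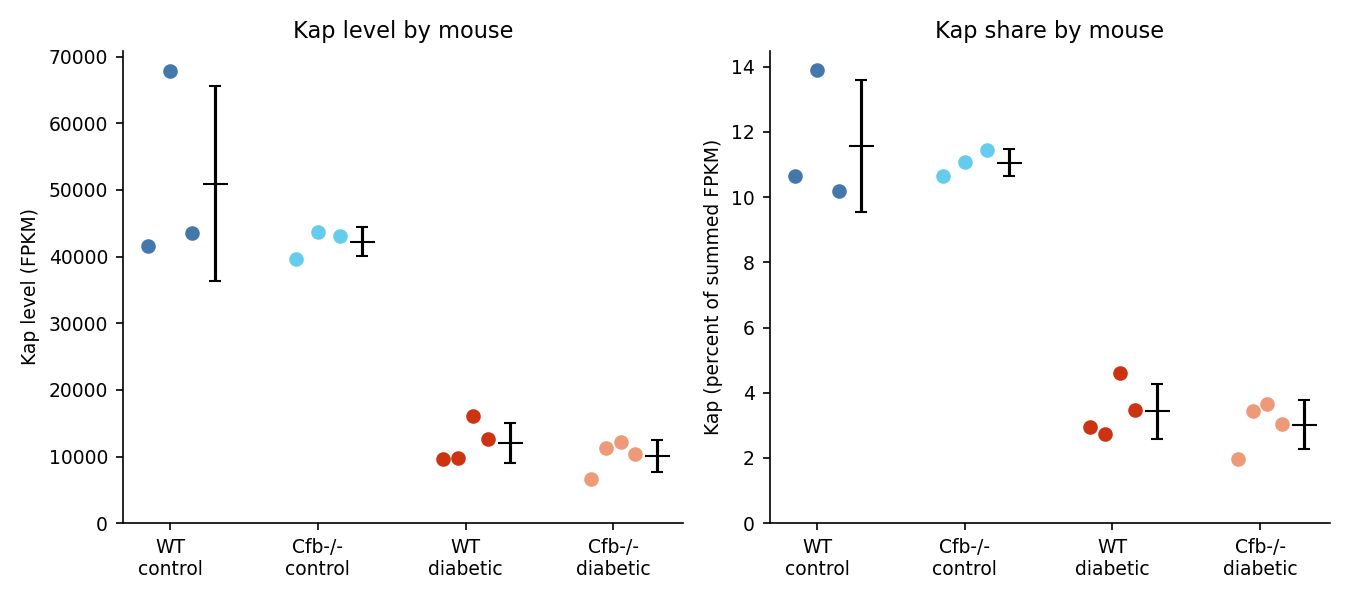
Kap in each mouse, as FPKM (left) and as percent of the mouse's summed FPKM (right), with 1 point per mouse and the mean ± SD of each group in black. All 6 control mice lie at or above 39707 FPKM and 10.2%, and all 8 diabetic mice lie at or below 16015 FPKM and 4.60%.

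The genotypes overlapped in Kap level within each state. In diabetic mice the log2 difference, Cfb-/- minus WT, was -0.25 with an SE of 0.30, and 3 of the 4 Cfb-/- diabetic values lay within the WT diabetic range. In control mice it was -0.24 with an SE of 0.35. It was -0.01 without WT control mouse 2 and -0.33 without WT control mouse 3. The difference between the genotypes in the effect of diabetes was -0.02 with an SE of 0.46. Each of these 3 differences was smaller than its SE. The order of the group means was thus WT control, Cfb-/- control, WT diabetic, and Cfb-/- diabetic, in which the first pair and the last pair of neighbours did not differ beyond their spread.

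Kap took a large share of all FPKM in control kidneys. Its share of the summed FPKM was 11.6 ± 2.03% in WT control and 11.1 ± 0.399% in Cfb-/- control mice, against 3.43 ± 0.838% in WT diabetic and 3.02 ± 0.741% in Cfb-/- diabetic mice. The share ranged from 10.2% to 13.9% in control and from 1.98% to 4.60% in diabetic mice, again without overlap. Without WT control mouse 2 the WT control share was 10.4%. On the log2 scale the share differed by -1.77 in WT (-1.63 without that mouse, -1.85 without WT control mouse 3) and -1.91 in Cfb-/- mice. These differences were smaller than those of the level, because the summed FPKM was itself lower in diabetic mice. The lower Kap level equalled 45.6% of the difference in mean summed FPKM between WT control and WT diabetic mice (51.7% without WT control mouse 2), and 69.2% of that between the Cfb-/- groups. A single gene thus carried much of the difference in the sums. By genotype the log2 share differed by -0.19 in diabetic and -0.05 in control mice, and the latter was 0.087 without WT control mouse 2.

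A share of FPKM counts molecules rather than reads, since FPKM divides by transcript length and Kap is short. If all Kap fragments came from the 707-base transcript, they would be 3.60 ± 1.04% of mapped fragments in WT control and 2.98 ± 0.154% in Cfb-/- control mice. The same estimate was 0.850 ± 0.212% in WT diabetic and 0.715 ± 0.17% in Cfb-/- diabetic mice. For the 464-base transcript the group means were 2.36%, 1.96%, 0.558%, and 0.470%. The length used by the authors is not given in the sources used here.

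Kap ranked first among all genes in 11 of 14 mice and second in 3. In those 3, namely WT diabetic mice 1 and 2 and Cfb-/- diabetic mouse 1, the first place was held by Gpx3, the plasma glutathione peroxidase that the proximal tubule secretes. Kap was 2.98 to 5.04 times the level of Gpx3 in control mice and 0.796 to 1.67 times in diabetic mice. Because the transcript length used is not given, the order of the 2 genes in diabetic mice could change with it. Gpx3 was at 13798 ± 1905 FPKM in WT control, 10117 ± 602 in WT diabetic, 10485 ± 1921 in Cfb-/- control, and 9366 ± 1107 in Cfb-/- diabetic mice. Its log2 differences by diabetes, -0.44 in WT and -0.15 in Cfb-/- mice, turned positive under quantile normalization, and in Cfb-/- mice also when every mouse was scaled to the same sum. Kap and Gpx3 held ranks 1 and 2 in every mouse, and quantile normalization fixes the value of each rank. The sign of Gpx3 there thus shows only which of these genes ranked first in which mice.

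After Kap and Gpx3, the most abundant genes described here were Fth1 and Ftl1, the ferritin chains that store iron, Eef1a1 and Tpt1, both tied to translation, Gpx1, a second glutathione peroxidase, Fxyd2, a subunit of the sodium pump, and Klk1, a kallikrein. Their differences by diabetes and that of Gpx3 lay between -0.79 for Fxyd2 in WT mice and 0.00 for Ftl1 in Cfb-/- mice. These 8 genes together made up 8.10% of the summed FPKM in WT control and 7.43% in WT diabetic mice, and 7.19% and 7.28% in the Cfb-/- groups. With Kap, the same sums were 19.7%, 10.9%, 18.3%, and 10.3%. Kap was therefore the member of the 9 with by far the widest gap between states.

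**Figure D2:**
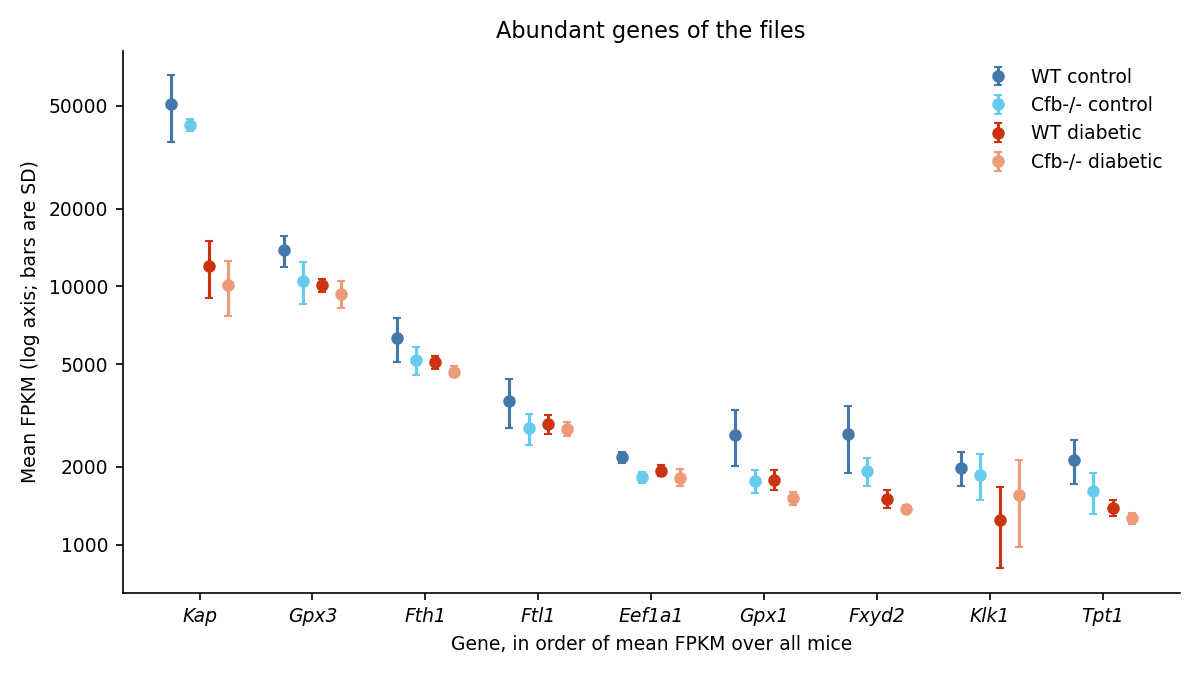
Mean FPKM with SD of 9 of the 10 most abundant genes in the 4 groups, on a log axis. The control means of Kap are about 4 times its diabetic means, and the means of the other 8 genes lie much closer together.

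Among the 601 genes with a mean of at least 100 FPKM, 5 had a lower log2 difference by diabetes than Kap in WT mice and 5 in Cfb-/- mice. In WT mice these were Slc5a2, Lpl, Cyp4b1, Miox, and Cyp2e1, and in Cfb-/- mice Lpl, Odc1, Cyp4b1, Ugt2b38, and Cyp2e1, all named after their values were seen. Slc5a2 is the glucose cotransporter SGLT2, Lpl is lipoprotein lipase, and Miox is the inositol oxygenase of the proximal tubule. Over the 601 genes, the median difference was -0.27 for WT and -0.13 for Cfb-/- mice.

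Genes known to be induced by androgen in male mouse kidney were tested beside Kap, and most fell with diabetes in both genotypes. The test was limma on log2(FPKM + 0.1), with p adjusted by Benjamini-Hochberg over 14912 genes and called under 0.05. Of 16 listed genes, 9 fell and 0 rose in WT mice, and 10 fell and 0 rose in Cfb-/- mice. The background was 9.97% of all tested genes called lower and 36.2% called higher in WT mice, and 6.4% called lower and 27.4% called higher in Cfb-/- mice. The median log2 difference of the list was -1.04 in WT mice, beside 0.29 over all tested genes, and -1.38 in Cfb-/- mice, beside 0.22. Another scaling moved this background, since 78.4% of the calls in WT mice were higher as deposited, 50.2% after median-ratio scaling, and 93.9% with a fixed sum per mouse, and in Cfb-/- mice 81.0%, 56.7%, and 92.0%. Without WT control mouse 3, the listed genes that fell were 10 in WT and 11 in Cfb-/- mice. The sum of the 16 genes in diabetic mice was 37.9 ± 3.63% of its control mean in WT and 35.2 ± 7.5% in Cfb-/- mice, and the matching values of Kap were 23.6 ± 5.88% and 24.0 ± 5.71%. Without WT control mouse 2 the WT values were 38.2 ± 3.67% for the sum and 28.3 ± 7.05% for Kap. The list was drawn up with earlier results of these data known.

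The steepest falls were in enzymes and a carrier of steroid and fatty acid metabolism. Cyp4a12a, the male-specific fatty acid hydroxylase, was at 134, 142, and 127 FPKM in WT control and at 10.8, 5.94, 5.60, and 3.17 in WT diabetic mice, with a log2 difference of -4.5 (SE 0.37, limma adjusted p = 2.51e-06). In Cfb-/- mice the difference was -4.12 (adjusted p = 4.67e-06). Slco1a1, an organic anion carrier that takes up steroid conjugates, fell as well, with differences of -3.92 (SE 0.53, adjusted p = 7.04e-05) and -4.82 (adjusted p = 1.82e-05). No diabetic mouse reached a control mouse in either gene. Both fell further than Kap on this scale, as did Cyp4b1, Cyp2j13, and Cyp2e1, cytochromes that oxidize fatty acids and foreign compounds, in both genotypes.

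Odc1, ornithine decarboxylase, is an enzyme of polyamine synthesis and 1 of the known androgen targets of mouse kidney. It was at 471, 390, and 400 FPKM in WT control and at 125, 113, 91.7, and 89.1 in WT diabetic mice, without overlap. Its log2 difference was -2.01 in WT (SE 0.23, limma adjusted p = 2.03e-05), beside -2.08 for Kap, and -2.56 in Cfb-/- mice (adjusted p = 4.43e-06). Adh1, an alcohol dehydrogenase, fell in both genotypes (-1.11 and -1.18), as did Nudt19, a peroxisomal coenzyme A hydrolase (-1.11 and -1.59). Slc7a13, an amino acid transporter of S3, fell too (-0.97, adjusted p = 0.0117, and -1.14, adjusted p = 0.00569), and the first call was lost without WT control mouse 1 (-0.71, adjusted p = 0.0534), by quantile normalization (-0.64), and with a fixed sum (-0.66). Acsm3, an acyl-CoA synthetase, differed by -0.40 in WT mice (adjusted p = 0.309) and fell in Cfb-/- mice (-1.14, adjusted p = 0.0123), a call lost without Cfb-/- control mouse 3 (-0.86, adjusted p = 0.0675).

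The remaining listed genes did not pass in either genotype. Gusb, the β-glucuronidase gene, was at 12.5 ± 0.623 FPKM in WT control and 11.6 ± 1.54 in WT diabetic mice, a log2 difference of -0.11 (SE 0.11, limma adjusted p = 0.428). Cyp4a12b, Cyp2d9, and Akr1c21, relatives of genes named above and a steroid reductase, had differences between -0.71 and -0.27. After median-ratio scaling Gusb, Cyp2d9, and Akr1c21 were called lower in both genotypes. Among mice left out, Cyp4a12b was called lower without Cfb-/- control mouse 1 (-1.09), Cyp2d9 without Cfb-/- diabetic mouse 4 (-0.56), both in Cfb-/- mice, and Akr1c21 without Cfb-/- diabetic mouse 4 (-0.54, Cfb-/-) or 2 (-0.40, WT). Cyp7b1 and Serpina1f rested on WT control mouse 3. Without it Cyp7b1 differed by -1.68 in WT mice (adjusted p = 0.0244), against -0.06 with it, and by -1.64 in Cfb-/- mice (adjusted p = 0.0164, against 0.187 with it), while Serpina1f differed by 0.041 in WT mice without it (adjusted p = 0.928), against 1.92 with all mice (adjusted p = 0.116), and was called higher without WT control mouse 1 (2.75) or 2 (2.97). Kap did not share this pattern, since it was as high in WT control mouse 3 as in WT control mouse 1.

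**Figure D3:**
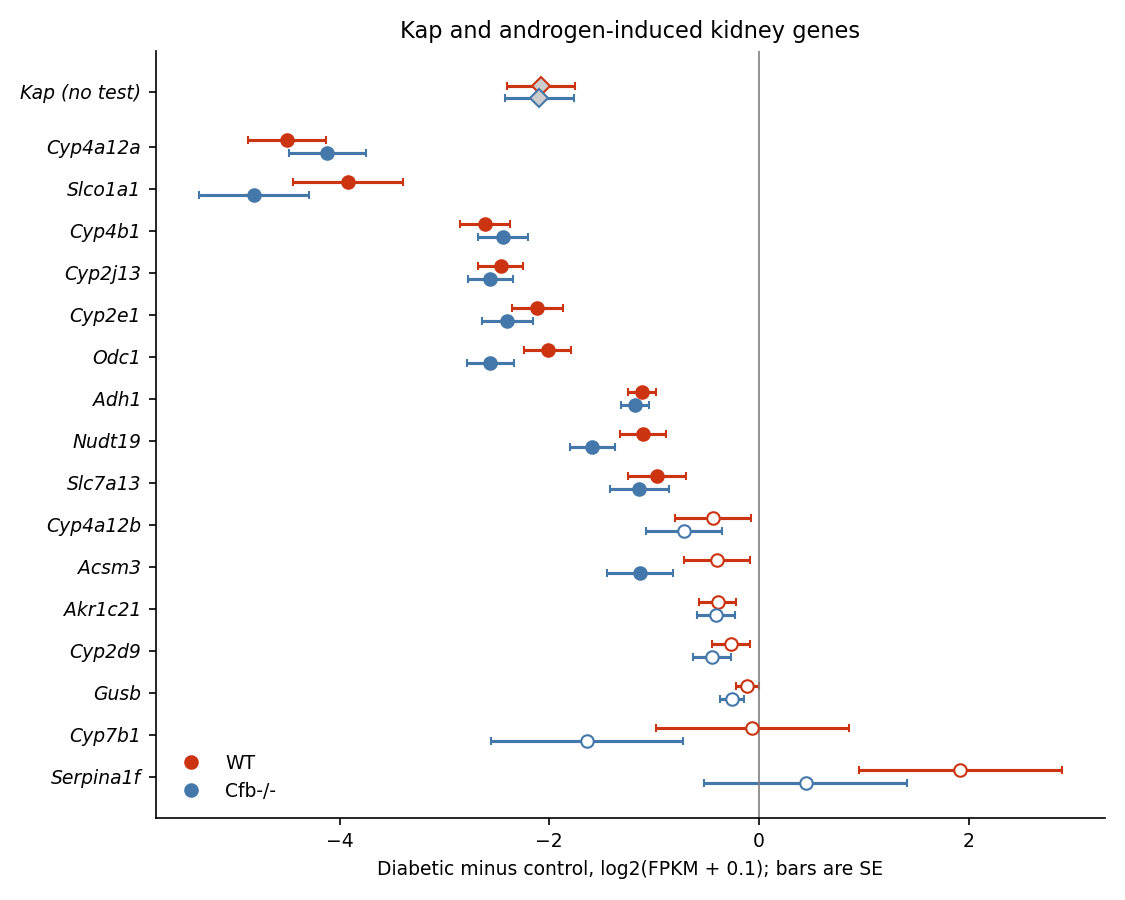
Log2 difference, diabetic minus control, with its SE, for Kap (diamonds, no test) and the 16 androgen-induced genes in WT (red) and Cfb-/- mice (blue). Filled circles passed an adjusted p of 0.05, open circles did not, and Kap lies between Cyp2e1 and Odc1 in WT mice.

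By genotype, 0 of the 16 genes were called in either state. Over all tested genes limma called 1 lower, Cfb itself, and 0 higher in diabetic mice (0.00671% and 0%), and likewise Cfb alone lower and 0 higher in control mice (0.00671% and 0%). At an unadjusted p under 0.05 there were 448 and 2614 genes. Without WT control mouse 1, the counts in control mice were 767 lower and 957 higher. The interaction of genotype and diabetes was called for 0 genes in either direction (0%), with 861 at an unadjusted p under 0.05. Without WT diabetic mouse 1 the interaction was called lower for 3 genes and higher for 0, and without Cfb-/- control mouse 1 for 3 and 1.

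Testosterone is reduced to dihydrotestosterone, the more potent androgen, by steroid 5α-reductases, and their genes were read as well. Srd5a2, the type 2 steroid 5α-reductase, was at 11.5, 9.73, and 5.80 FPKM in WT control and at 0.28, 1.85, 1.71, and 1.01 in WT diabetic mice. It fell in WT (-2.99, SE 0.48, limma adjusted p = 0.000244) and in Cfb-/- mice (-2.28, adjusted p = 0.00211). Srd5a1, the type 1 enzyme, differed by 0.09 and 0.54 (adjusted p = 0.726 and 0.0534). The first sign changed with the scaling, and the second difference was called without Cfb-/- diabetic mouse 3 (0.61), WT diabetic mouse 4 (0.54), or Cfb-/- control mouse 1 (0.76). The second difference was also called with a fixed sum with Kap (0.73) or without it (0.60). Transcript levels of enzymes do not measure hormone, which was not analysed here.

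Of the 15 listed hormone receptors, reductases, and kidney transcription factors, 2 fell and 2 rose in each genotype, beside 9.97% of all genes called lower and 36.2% called higher in WT and 6.4% and 27.4% in Cfb-/- mice. As deposited, these counts do not set the list apart from all genes. The 2 that fell were Srd5a2 and Hnf4a, a factor of proximal tubule identity, with -0.75 in WT (limma adjusted p = 0.00206) and -0.79 in Cfb-/- mice (adjusted p = 0.00175). The 2 that rose were Cebpd and Cebpb, C/EBP factors of the acute phase. Cebpd rose by 1.17 (adjusted p = 0.00413) and 1.87 (adjusted p = 0.000175), and Cebpb by 0.56 (adjusted p = 0.0165) and 0.79 (adjusted p = 0.00288). The first Cebpb call was lost without WT control mouse 1 (0.48) or 2 (0.49) and by median-ratio scaling (0.28, adjusted p = 0.192), and the first Cebpd call by quantile normalization (0.70, adjusted p = 0.0656). The list counts moved with the scaling, and median-ratio scaling called 4 lower in WT and 7 in Cfb-/- mice, quantile normalization 5 lower in Cfb-/- mice, and a fixed sum 6 higher in WT and 4 in Cfb-/- mice. Over all genes, median-ratio scaling called 3349 of 14873 lower in WT and 2101 in Cfb-/- mice. Quantile normalization called 2228 of 14912 lower in Cfb-/- mice. A fixed sum called 8627 of 14959 higher in WT and 6052 in Cfb-/- mice. They also moved with single mice, and in Cfb-/- mice 4 genes fell without Cfb-/- diabetic mouse 3 or 4 and 4 rose without Cfb-/- control mouse 1.

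Some genes used more in female than in male mouse kidney rose. Of 6 listed, 4 rose and 1 fell in WT mice, and 2 rose and 1 fell in Cfb-/- mice. With 36.2% and 27.4% of all genes called higher in WT and Cfb-/- mice, the count in Cfb-/- mice was near the background. Abcc3, an efflux pump, rose by 2.80 in WT (limma adjusted p = 2.03e-05) and 2.21 in Cfb-/- mice (adjusted p = 0.000122), and Prlr, the prolactin receptor, rose by 2.86 and 2.96 (adjusted p = 0.000646 and 0.000589). The WT value of Prlr was 2.11 without WT control mouse 3 and 3.48 without WT control mouse 1, and still called. Cyp4a14, a fatty acid hydroxylase, rose by 5.48 in WT mice (adjusted p = 1.66e-05; 4.82 without WT control mouse 3 and 6.08 without WT control mouse 1) and differed by 1.56 in Cfb-/- mice (adjusted p = 0.0583), a difference that was called without Cfb-/- control mouse 2 (2.21, adjusted p = 0.0164) and without WT control mouse 1 or 3. The Cfb-/- difference was also called with a pseudocount of 1 (1.53), by quantile normalization (1.66), and with a fixed sum with Kap (1.75) or without it (1.62). Slc7a12, an amino acid transporter, rose in WT mice by 2.52 (adjusted p = 0.0371), but differed by 0.94 without WT control mouse 3 (adjusted p = 0.197) and by 3.73 without WT control mouse 1, and the call was also lost without WT control mouse 2 or WT diabetic mouse 2, 3, or 4. The Slc7a12 call was lost as well without a filter, by median-ratio scaling (2.25) or quantile normalization (2.25), and when only the compared groups were fitted. Slc22a7, an anion transporter that the list shares with the S3 list, fell in both genotypes (-1.61 and -2.08, adjusted p = 0.0322 and 0.0111). The first call was lost without WT control mouse 1 (-1.54) or 2 (-1.19) or WT diabetic mouse 1, 2, or 4, and the second without Cfb-/- control mouse 3 (-1.54). The first was also lost by quantile normalization (-1.60) and with a fixed sum (-1.30).

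Kap comes from proximal tubule cells, so it was set beside other genes of these cells. Of 12 general proximal tubule genes, 6 fell and 0 rose in WT mice and 7 fell and 0 rose in Cfb-/- mice, beside 9.97% and 6.4% of all genes called lower. Examples were Miox (-2.12 and -1.71), Slc34a1, the phosphate cotransporter (-1.34 and -1.29), and Keg1, a kidney acyltransferase-like gene (-1.01 and -1.21), with limma adjusted p at most 0.00182 in all. Lrp2, which encodes megalin, fell in Cfb-/- mice (-0.83, adjusted p = 0.039), a call lost without any 1 of Cfb-/- control mice 1 to 3 or Cfb-/- diabetic mice 1 and 2. The Lrp2 call was also lost without a filter, by quantile normalization (-0.74), and with a fixed sum with Kap (-0.64) or without it (-0.76). It was lost as well when only the compared groups were fitted. Of 7 S1 and S2 genes, 4 fell in WT and 5 in Cfb-/- mice and 0 rose. These were Slc5a2 (-2.99 and -2.0), Slc5a12, a lactate transporter (-2.36 and -1.84), the anion transporters Slc22a6 and Slc22a8, and in Cfb-/- mice also Slc13a3, a dicarboxylate transporter (-0.74). Slc13a3 differed by -0.42 in WT mice (adjusted p = 0.0522) and was called there without any 1 of the Cfb-/- diabetic mice. The WT call of Slc22a6 (-0.69) was lost by quantile normalization (-0.42, adjusted p = 0.0856) and with a fixed sum (-0.38, adjusted p = 0.0748). Of 7 S3 genes, 2 fell (Slc7a13 and Slc22a7) and 2 rose (Slc22a13 and Slc5a1) in WT mice, and 3 fell (Slc7a13, Slc22a7, and Atp11a) and 0 rose in Cfb-/- mice. The genes that rose were no larger a share of the S3 list than the 36.2% called higher over all genes in WT mice. The S3 counts in WT mice depended on WT control mice 1 and 3, since 0 fell without the first and 4 fell without the second, and 1 fell without WT diabetic mouse 1, 2, or 4. Without WT control mouse 3, Slc22a13 was no longer called in WT mice (0.84, against 2.04 with all mice and 2.64 and 2.63 without WT control mouse 1 or 2) and was called higher in Cfb-/- mice (1.03). Slc7a13, Cyp7b1, and Serpina1f belong to both the S3 and the androgen-induced list.

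Kap was lower by more than the typical proximal tubule gene. Within each mouse, log2 Kap minus the median log2 level of the 12 general proximal tubule genes was 6.13 to 6.98 in control and 4.49 to 5.49 in diabetic mice, without overlap. Its means were 6.47 ± 0.444 in WT control, 4.87 ± 0.33 in WT diabetic, 6.37 ± 0.159 in Cfb-/- control, and 5.13 ± 0.247 in Cfb-/- diabetic mice. The summed FPKM of the 12 genes in diabetic mice was 54.6 ± 4.7% of the control mean in WT and 53.7 ± 12.7% in Cfb-/- mice, that of the S1 and S2 genes 51.1 ± 5.75% and 52.6 ± 17.4%, and that of the S3 genes 64.1 ± 14% and 52.4 ± 14%. Without WT control mouse 3 the S3 value in WT mice was 53.8 ± 11.7%. In WT mice 1 of the 12 general genes, Miox, and 2 of the 7 S1 and S2 genes, Slc5a2 and Slc5a12, had a lower log2 difference than Kap, and in Cfb-/- mice 0 of them did.

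Markers of other cells and of injured tubules moved in the same comparison, in which 36.2% of all genes in WT and 27.4% in Cfb-/- mice were called higher. All 10 injured tubule genes rose in both genotypes, among them Havcr1, which encodes KIM-1, by 5.53 and 4.37, and Lcn2, which encodes NGAL, by 5.92 and 4.26 (limma adjusted p at most 9.29e-06 for both genes). Their sum was 301 to 340 FPKM in WT control and 1630 to 2582 in WT diabetic mice, and 337 to 373 and 1296 to 2475 in the Cfb-/- groups. Most of this sum was Spp1 alone, at 229 to 243 and 1406 to 2250 FPKM in WT and 262 to 296 and 1132 to 2091 in Cfb-/- mice. Of 8 immune cell genes, 8 rose in WT and 7 in Cfb-/- mice, with sums of 50.7 to 66.5 and 220 to 325 FPKM in WT and 40.8 to 65.6 and 184 to 347 in Cfb-/- mice. Of 8 podocyte and endothelial genes, 4 rose in WT and 7 in Cfb-/- mice, and their sums were 97.5 to 154 and 157 to 212 FPKM in WT and 105 to 115 and 160 to 226 FPKM in Cfb-/- mice. All 6 urothelial and all 5 adipocyte genes rose in WT mice, with urothelial sums of 0.3 to 0.6 FPKM in control and 0.7 to 46.3 in diabetic mice and adipocyte sums of 18.3 to 33.0 and 54.9 to 97.0. Most of each adipocyte sum was Fabp4 alone, at 18.3 to 32.9 FPKM in WT control and 44.1 to 68.7 in WT diabetic mice. The urothelial sum of 0.7 FPKM was that of WT diabetic mouse 1, and the next lowest was 15.1, in WT diabetic mouse 4. With a mouse left out, 4 to 6 urothelial and 4 to 5 adipocyte genes rose in WT mice. Quantile normalization, or a filter of 1 FPKM in 3 mice, gave 3 adipocyte genes higher there. In Cfb-/- mice 0 urothelial genes and 1 adipocyte gene, Fabp4, rose. Of 6 thick limb and distal genes, 2 rose in each genotype, and of 7 collecting duct genes, 1 rose in WT and 0 in Cfb-/- mice. The shares of the podocyte and endothelial list in WT mice and of the thick limb and distal list were not far from those over all genes. In WT mice median-ratio scaling gave 2 podocyte and endothelial, 1 thick limb and distal, and 0 collecting duct genes higher, and a fixed sum gave 7, 4, and 3. Over all genes in WT mice, median-ratio scaling called 3378 of 14873 higher and a fixed sum 8627 of 14959. The list counts also moved with single mice, for example to 0 thick limb and distal genes in Cfb-/- mice without Cfb-/- control mouse 1 or 2, 0 collecting duct genes in WT mice without WT control mouse 1 or 3, 0 adipocyte genes in Cfb-/- mice without Cfb-/- control mouse 2, and 2 podocyte and endothelial genes in WT mice without WT control mouse 2. No WT control mouse had a value above 0 for 1 of the adipocyte genes, nor any Cfb-/- diabetic mouse for 2 of them. The part of these cells in the Kap values was not tested.

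**Figure D4:**
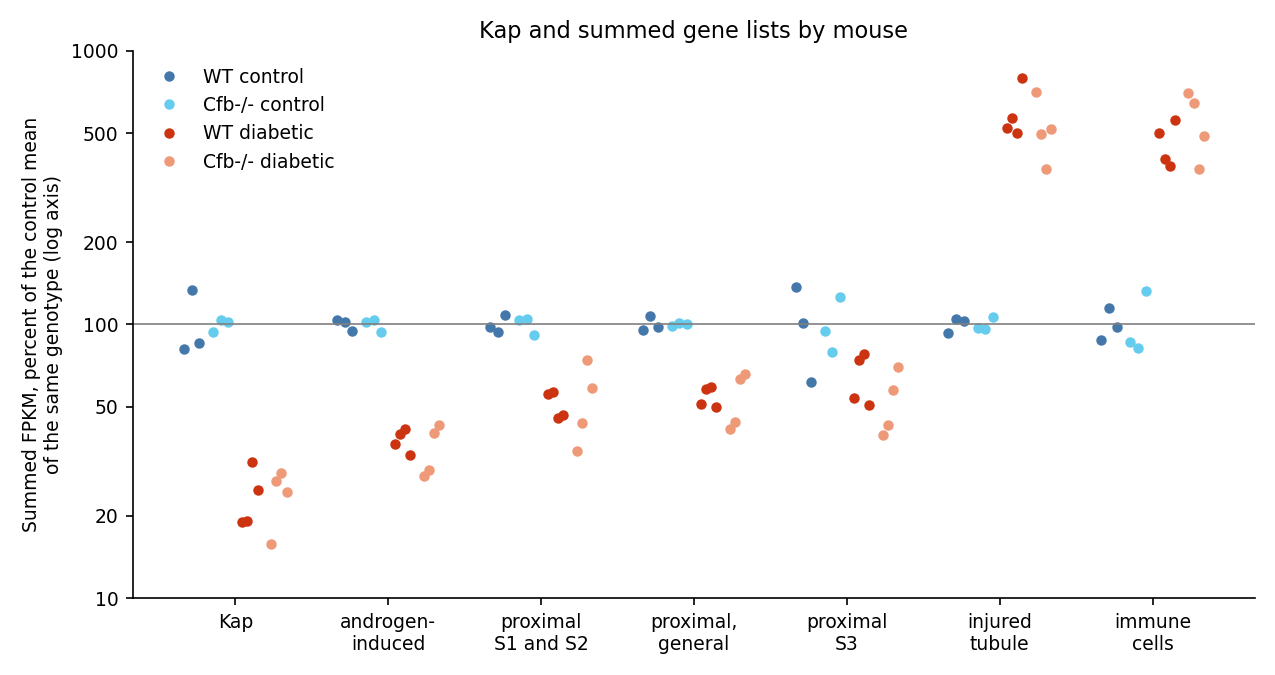
Kap and the summed FPKM of 6 gene lists in each mouse, as percent of the control mean of the same genotype, on a log axis. In diabetic mice Kap averages 23.6% (WT) and 24.0% (Cfb-/-), the androgen-induced genes 37.9% and 35.2%, and the general proximal tubule genes 54.6% and 53.7%, whereas injured tubule genes average 597% and 522%. Without WT control mouse 2 the WT average of Kap is 28.3%. A sum follows its most abundant genes, and most of the injured tubule sum is Spp1 alone.

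The genes whose levels ran most nearly parallel to Kap over the 14 mice were Acy3, Amacr, Apoh, Ppt2, and Ggct, with Pearson's r of log2(FPKM + 0.1) from 0.985 to 0.973 among 11395 genes with a mean of at least 1 FPKM. Acy3, an aminoacylase of the proximal tubule, was at 1563, 2074, and 1612 FPKM in WT control, 1610, 1791, and 1370 in Cfb-/- control, 428, 461, 525, and 536 in WT diabetic, and 331, 377, 468, and 460 in Cfb-/- diabetic mice. The mice form 2 clusters by diabetes, so such an r holds mainly the distance between control and diabetic mice, and 217 genes had an r over 0.9. With the group means removed, r for Acy3 was 0.769. Amacr, a racemase of branched fatty acids, and Apoh, a secreted apolipoprotein, had 0.658 and 0.795.

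The genes that ran most nearly opposite to Kap were Lox, Mrc1, Stat3, Col8a1, and Rab31, with r from -0.990 to -0.982, and 1158 genes had an r below -0.9. Lox, the lysyl oxidase that cross-links collagen, was at 0.62, 0.32, and 0.53 FPKM in WT control and 0.59, 0.55, and 0.50 in Cfb-/- control mice. In diabetic mice it was at 3.05, 2.89, 2.31, and 2.69 FPKM in WT and 3.73, 2.38, 2.50, and 2.54 in Cfb-/- mice. The lowest Lox of all was in WT control mouse 2 and the highest in Cfb-/- diabetic mouse 1, the mice with the highest and the lowest Kap. With group means removed, r was -0.935 for Lox, -0.799 for Mrc1, the mannose receptor of macrophages, and -0.795 for Stat3, a transcription factor of cytokine signalling. None of the 10 genes was among the first 5 in its direction by Spearman's rho, and 1 was by r without group means, so the choice of names depends on the measure. All genes in a mouse share its library and scaling.

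**Figure D5:**
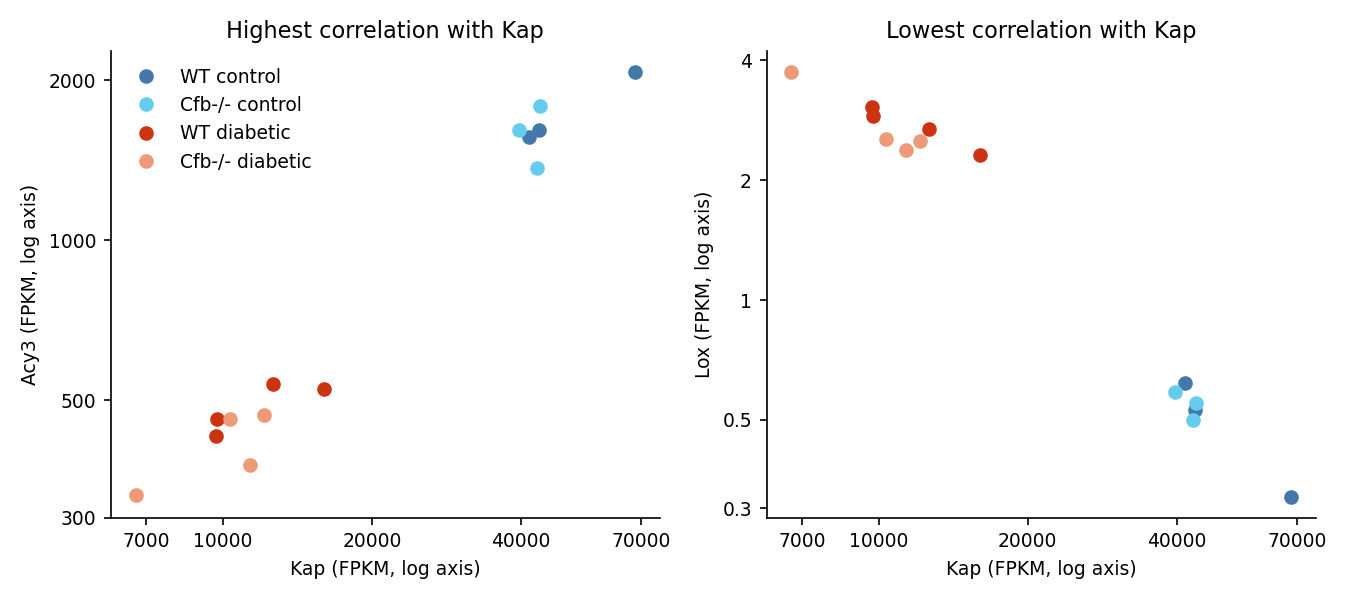
FPKM of Kap (horizontal, log axis) against FPKM of Acy3 (left) and Lox (right, both log axes), with 1 point per mouse. Control and diabetic mice form separate clusters, Acy3 is higher and Lox lower where Kap is high, and WT control mouse 2 and Cfb-/- diabetic mouse 1 lie at the ends.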

How the data were processed

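The authors deposited 1 table per mouse, with an FPKM value for each of 21878 genes named by symbol. The libraries were stranded and read as paired ends. The submitters' processing notes name Trimmomatic, HISAT2, Cufflinks, HTSeq, and DESeq, without versions or roles, and the build GRCm38.p6. The number of reads is not given in the sources used here, and how reads were divided between Kap transcripts was not analysed here.

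Means, SD, ratios, ranks, and shares were computed from the deposited levels in Python 3.11.15 (pandas 2.3.3, numpy 2.4.6). Differences and p came from limma 3.58.1 (R 4.3.3) on log2(FPKM + 0.1), which understates changes of low genes, with 1 mean for each group of all 14 mice and an intensity trend in the variance. A gene entered when 3 or more mice had an FPKM of 0.1 or more, leaving 14912, and Benjamini-Hochberg adjusted p under 0.05 made a call. Here p measures only the spread between these mice. The procedure was tested on simulated data.

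The genes named are Kap, the 10 of highest mean FPKM, members of fixed lists, the 5 with the highest and the 5 with the lowest r with Kap, neighbours of Kap, and Cfb, of which a few are not reported here. Kap and the lists were chosen with earlier results of these data known. The alternatives changed the pseudocount, the filter, the scaling between mice, or the mice in the fit, or added a replicate block, and those for the further lists, shares, and list sums were chosen after seeing the data. Starts and motifs come from GENCODE M21 and RefSeq tables of GRCm38.p6.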

Additional observations from a re-analysis of the deposited data

Results flagged for a closer look

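Of 86 diabetic groups of 4 mice examined, for Kap and other named genes, 2 held a mouse far from the other 3. Chance alone gives about 1 such group in 20, so 2 of 86 is no more than chance gives. Srd5a1, the type 1 steroid 5α-reductase, was at 12.5 FPKM in WT diabetic mouse 4 and at 7.57 to 8.36 FPKM in the other WT diabetic mice. Slc22a13, a transporter of S3, was at 32.7 FPKM in WT diabetic mouse 1 and at 55.2 to 58.6 FPKM in the other 3. Kap had no such mouse in either diabetic group. Control groups of 3 mice are too small for this check.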

How the results depend on the processing

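Under all alternatives but quantile normalization, the Kap differences by diabetes lay between -2.36 and -1.77 in WT and between -2.34 and -1.91 in Cfb-/- mice. With each mouse left out in turn they were -2.23 to -1.85 and -2.19 to -1.91. Median-ratio scaling gave -2.36 and -2.34, and scaling to a fixed sum gave -1.77 and -1.91 with Kap in the sum and -1.90 and -2.03 without it. The SE of the WT difference ran from 0.22, with Kap in a fixed sum, to 0.55, without a filter. Quantile normalization gives the first-ranked gene the same value in every mouse, so that Kap differed there by -0.50 in WT and -0.25 in Cfb-/- mice, and by 0.25 between the genotypes in diabetic mice. Mice of different groups that share a number in the labels were not taken as pairs, since deviations from the group means correlated at -0.388 to 0.243 over 19 such pairs and over 0.1 in 3. With the replicate block, Kap differed by -2.11 and -2.12, and the block changed the call of Slc7a12, Slc22a13, Slc22a7, Lrp2, and Slc13a3 in 1 genotype each. Counts of the androgen-induced genes that fell were 8 to 12 in WT and 10 to 13 in Cfb-/- mice over these settings, and 8 to 10 and 9 to 12 with a mouse left out, where 0 to 1 rose in WT mice.

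The all-gene counts changed most with the scaling. In WT mice 1487 fell and 5392 rose (78.4% of calls higher). The counts were 3349 and 3378 by median-ratio scaling (50.2%), 2992 and 2366 by quantile normalization (44.2%), 559 and 8627 with a fixed sum (93.9%), and 840 fell with a fixed sum without Kap (89.3% higher). In Cfb-/- mice 955 fell and 4083 rose (81.0%), against 2101 fallen by median-ratio scaling (56.7% higher), 2228 and 2146 by quantile normalization (49.1%), and 524 fallen with a fixed sum (92.0%). By genotype in diabetic mice the count lower, 1, was 2 with a pseudocount of 0.01 or a fixed sum without Kap, 3 with a fixed sum or the compared groups only, and 1 to 6 with a mouse left out, and the count higher, 0, was 1 without a filter and 0 to 1 with a mouse left out. In control mice the count lower, 1, was 2 with a pseudocount of 0.01, 3 with the compared groups only, and 1 to 767 with a mouse left out, and the count higher, 0, was 2 with that pseudocount or no filter, 1 with the compared groups, and 0 to 957 with a mouse left out. The highest counts in control mice came without WT control mouse 1, and the cause was not tested. For the interaction, 1 gene was called in each direction with a pseudocount of 0.01, and 0 to 3 lower and 0 to 1 higher with a mouse left out.

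Of the S3 genes in WT mice, 0 fell by quantile normalization or a fixed sum, 1 with the block, and 0 to 4 with a mouse left out, and 1 rose with the block or the compared groups only, and 1 to 3 with a mouse left out. In Cfb-/- mice 1 rose with the compared groups only, and 0 to 1 with a mouse left out. Signs turned only in differences that were not called. In WT mice, a fixed sum with Kap gave Gusb 0.20, Cyp2d9 0.040, and Cyp7b1 0.24, and a fixed sum without Kap gave Gusb 0.070 and Cyp7b1 0.12. Cyp7b1 was 0.019 with the block and -1.68 to 0.76 with a mouse left out. Akr1c21 was 0.028 by quantile normalization. In WT mice Srd5a1 was -0.19 by median-ratio scaling, -0.12 by quantile normalization, and -0.067 to 0.17 with a mouse left out, and Gpx3 was 0.50 by quantile normalization. In Cfb-/- mice Gpx3 was 0.25 by quantile normalization and 0.033 with a fixed sum. Of 58 called differences of named genes, 48 were called under all 24 alternatives and 10 were lost in at least 1. The depth is unknown, and differences of genes near 0.1 FPKM are read coarsely.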
